A study of Mus musculus with 4 samples.

Results

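The 10 genes examined encode regulators of transcription that act around the passage from meiosis to the round spermatid. These genes, Crem, Fhl5, Rfx1, Rfx2, Rfx3, Sox5, Sox30, Tbpl1, Tcfl5 and Mybl1, were studied as sources of RNA bound by IGF2BP3 in the mouse testis. All clusters of reads whose centre lay inside the span of one of these genes, on its strand, were taken (GENCODE M21, mm10). All 10 genes had clusters, out of 18068 annotated genes with a cluster in either replicate. They held 597 of 337234 clusters in replicate 1 and 405 of 216354 clusters in replicate 2. IGF2BP3 eCLIP-seq was performed on testes of 8-week-old wild-type C57BL/6 mice, which contain germ cells and somatic cells. In eCLIP-seq, ultraviolet light crosslinks proteins to the RNA they touch, the antibody recovers the RNA bound to the protein (IP), and a size-matched sample taken before the antibody step (SMInput) serves as the background. There were 2 replicates, each with 1 IP and 1 SMInput library, and no knockout or untreated group was part of this comparison.

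Spermatid differentiation depends on a burst of transcription after meiosis, followed by storage of many mRNAs whose translation is delayed until the nucleus has been compacted. The transcription factors of this period come in layers: MYBL1 and TCFL5 start in meiotic cells, CREM and its coactivator FHL5 act in round spermatids, RFX factors bind the promoters of ciliary genes, SOX30 and SOX5 bind DNA through an HMG box, and TBPL1 takes a place in the basal machinery like that of TBP. IGF2BP3 belongs to a family of RNA-binding proteins with KH and RRM domains that act on the stability, location and translation of the mRNAs they bind.

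For each cluster, the authors' value compared IP with SMInput reads of the same replicate, and a cluster was called a significant peak when its log2(fold change) and its −log10(P value) both reached 2. The listed −log10(P value) is capped at 400. It is 0 for every cluster whose log2(fold change) is not above 0, and for some with a log2(fold change) of up to 0.18 in replicate 1 and 0.11 in replicate 2. Whole read numbers that return both listed values were found for nearly all clusters listed between 0 and the cap. They are missing for 50 of the 597 clusters of the 10 genes in replicate 1 and for 22 of 405 in replicate 2, of which 1 and 2 were significant. The libraries held 5133438 usable IP and 8706391 SMInput reads in replicate 1, and 4637612 and 16696122 in replicate 2. The deeper SMInput of replicate 2 means that 1 SMInput read was worth less there. Intervals given with a fold change are 95% Clopper-Pearson intervals of the IP share of the reads, turned into a log2 ratio. They cover counting error only. The replicates are described as biological, and the labels do not say which animals each came from.

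The 10 genes held 49 significant peaks in replicate 1, which was 8.21% of their clusters, against 4.92% of all clusters. In replicate 2 they held 66, or 16.3% of their clusters, against 13.2% of all. Most of the excess came from Sox30 and Mybl1, which were singled out after their values were seen: without these genes, 23 of 519 clusters (4.43%) in replicate 1 and 36 of 343 (10.5%) in replicate 2 were significant, below the share over all clusters in both replicates. The median log2(fold change) of all clusters of the 10 genes was 1.35 and 1.58 in replicates 1 and 2, beside 1.50 and 1.53 over all clusters.

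By gene, 9 of the 10 had a significant peak in replicate 1, where 35.5% of annotated genes with a cluster had one, and all 10 had one in replicate 2, where 57% did. The 9 genes with a peak in both replicates stood beside 35.2% of genes that had clusters in both. In 7 of the 10, Crem, Rfx1, Rfx2, Sox30, Tbpl1, Tcfl5 and Mybl1, significant peaks of the replicates overlapped, against 15.1% of genes. The 10 genes had many clusters, from 21 to 142 in replicate 1 and from 13 to 86 in replicate 2. Among the 4222 annotated genes with cluster numbers in these ranges, 67.7% had a peak in both replicates and 27.3% had overlapping peaks.

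**Figure D1:**
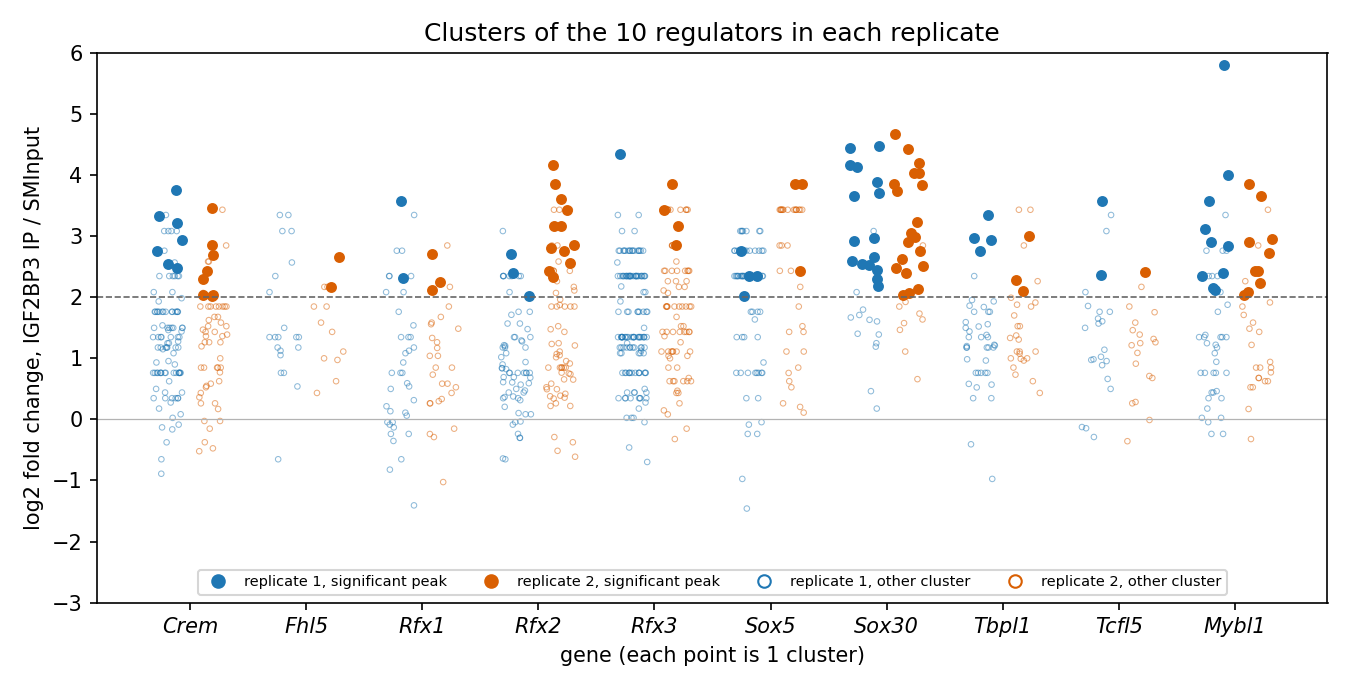
The log2(fold change) of IP over SMInput (vertical axis) is shown for every cluster of the 10 genes (horizontal axis), with replicate 1 in blue and replicate 2 in orange. Filled points are significant peaks, open points are other clusters, and the dashed line marks 2; Sox30 had 16 and 20 filled points, while Fhl5 had 0 in replicate 1.

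Of the significant peaks, 28 of 49 in replicate 1 (57.1%) and 33 of 66 in replicate 2 (50%) met a significant peak from the opposite replicate, compared with 33.0% and 18.5% of significant peaks throughout the genome. Sox30 and Mybl1 gave most of these: without them, in a comparison chosen after their values were seen, 8 of 23 peaks (34.8%) in replicate 1 and 9 of 36 (25%) in replicate 2 did so, in replicate 1 close to the share throughout the genome. Joined together, the shared peaks of all 10 genes formed 16 sites, 9 in 3′UTRs and 7 in coding sequence (CDS), and 0 in introns. Among peaks with known read numbers, shared ones rested on more reads, with a median of 59 IP reads in replicate 1 and 53 in replicate 2, against 12 and 9 for those found in a single replicate. Of the 33 unshared peaks of replicate 2, 16 were in introns (48.5%), close to the 46.0% of all unshared peaks of replicate 2. Of the same 33, 23 met no cluster at all in replicate 1 (69.7%), close to the 71.6% of all. In replicate 1, 4 of 21 unshared peaks were in introns (19.0%), against 32.5% of all unshared peaks of replicate 1. There, 14 of the 21 met no cluster of replicate 2 (66.7%), against 69.6% of all.

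In replicate 1, 20 of 49 significant peaks (40.8%, 95% Wilson interval 28.2 to 54.8) had their centre in a 3′UTR, and in replicate 2 the number was 22 of 66 (33.3%, 23.2 to 45.3). Over all significant peaks these shares were 43.2% and 36.6%, inside both intervals. The CDS held 25 peaks in replicate 1 (51.0%, 37.5 to 64.4) and 26 in replicate 2 (39.4%, 28.5 to 51.5), while 28.4% and 20.4% of all significant peaks were in CDS. Sox30 alone accounted for 16 and 19 of these CDS peaks. Neighbouring peaks of an exon can share reads, so they are not independent and the intervals are too narrow. Introns held 357 of the 597 clusters (59.8%) and 4 of the 49 peaks (8.16%) in replicate 1, and 198 of 405 clusters (48.9%) and 16 of 66 peaks (24.2%) in replicate 2. Introns had a lower share of peaks than of clusters throughout the genome as well, with 57.7% of all clusters and 22.8% of all significant peaks in replicate 1, and 46.7% and 38.1% in replicate 2.

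Mybl1 encodes A-MYB, the activator that switches on a large set of meiotic genes in pachytene spermatocytes, piRNA precursors among them. Its gene (ENSMUSG00000025912.16) occupies bases 9667415 to 9700209 of chromosome 1, minus strand. All 10 significant peaks of replicate 1 and all 10 of replicate 2 lay in the 3′UTR of exon 16, the last exon, which carried 13 and 12 of the 49 and 33 clusters of the gene. The 15 exons before it had no significant peak in either replicate, although the CDS of the gene had 17 and 15 clusters. Few genes had more peaks: 187 of 17116 with a cluster in replicate 1 and 388 of 15203 in replicate 2.

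Of the shared sites, 5 were in the Mybl1 3′UTR, all in sequence that 1 of its 2 basic transcripts, Mybl1-201, holds. Distances below refer to that transcript. The site at 9667523 to 9667726, centred 2260 bases past the stop codon and 209 bases from the transcript end, reached a log2(fold change) of 3.12 in replicate 1 (36 IP and 7 SMInput reads, interval 1.94 to 4.54) and 2.96 in replicate 2 (56 and 26 reads, 2.26 to 3.69). The site nearest the stop codon, at 9669462 to 9669544, had a fold change of 5.81 in replicate 1 and 2.43 in replicate 2. The first value is the highest of any significant peak of the 10 genes, but it rests on 33 IP reads against 1 SMInput read (3.23 to 11.15), while replicate 2 had 12 against 8 (1.02 to 3.93). The peaks there overlapped by their edges: they spanned 9669483 to 9669544 and 9669462 to 9669496. The other sites, at 9667819 to 9667884, 9667999 to 9668080 and 9668103 to 9668188, had values from 2.15 to 2.90 in replicate 1 and from 2.03 to 2.43 in replicate 2.

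**Figure D2:**
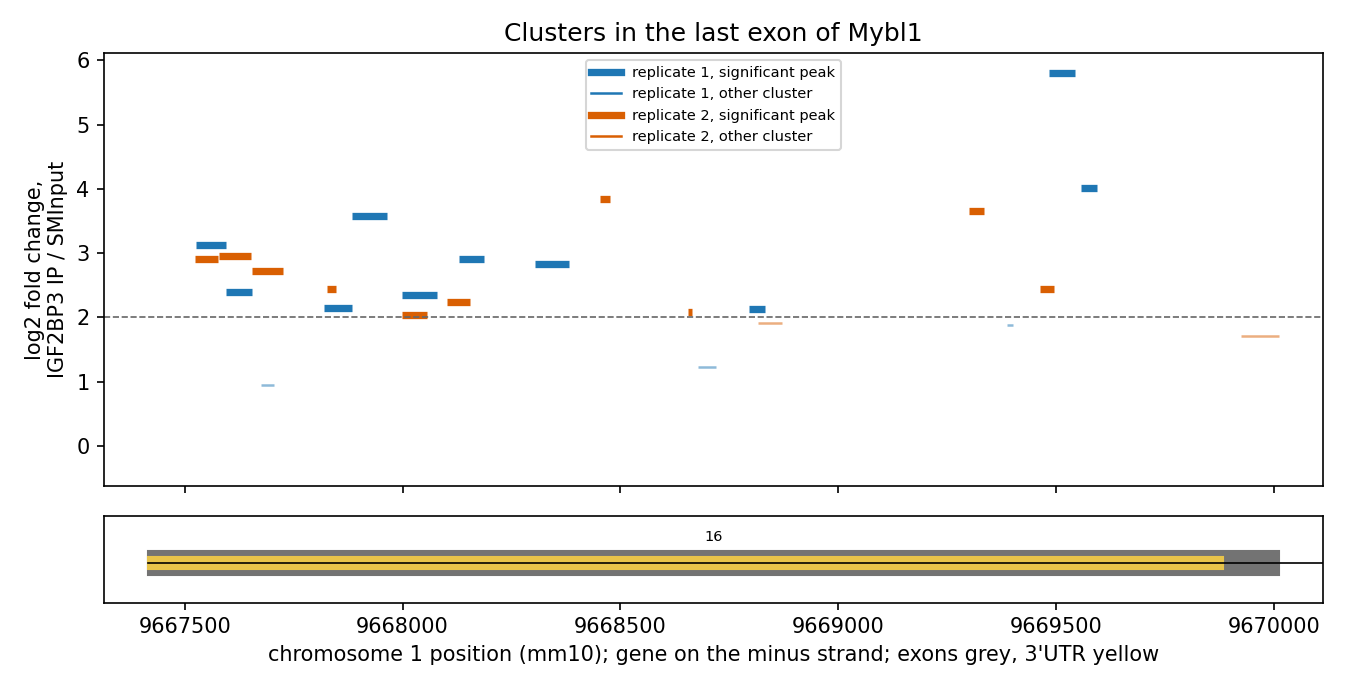
Clusters in the last exon of Mybl1 are drawn at their position on chromosome 1 (horizontal axis, mm10) and log2(fold change) of IP over SMInput (vertical axis), with thick bars for significant peaks and thin bars for other clusters of replicate 1 (blue) and replicate 2 (orange). The strip below shows exon 16 in grey and its 3′UTR in yellow, which holds all 10 significant peaks of each replicate.

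Tcfl5, a basic helix-loop-helix factor of spermatocytes and round spermatids, carried a single shared site. The gene (ENSMUSG00000038932.13) covers 180621956 to 180642708 on the minus strand of chromosome 2 and has 1 basic transcript of 6 exons. The site, at 180622010 to 180622102 in the 3′UTR of exon 6 and 100 bases from the transcript end, had a log2(fold change) of 2.36 in replicate 1 (85 IP and 28 SMInput reads, interval 1.73 to 3.04) and 2.41 in replicate 2 (77 and 52 reads, 1.89 to 2.95). Both lower limits were under the threshold of 2, and the values of the replicates lay well inside each other's interval. Exons 1 to 5 had 10 clusters in each replicate and no significant peak. The remaining peak of Tcfl5, in an intron at 180629669 to 180629695, was seen in replicate 1 with 7 IP reads against 1.

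Crem, the cAMP-responsive modulator that becomes a strong activator in round spermatids and is needed for spermiogenesis, makes many transcripts from several promoters by alternative splicing. The gene (ENSMUSG00000063889.16) spans 3266048 to 3337748 on the minus strand of chromosome 18, with 23 basic transcripts. It had 7 significant peaks among 106 clusters in replicate 1 and 8 among 59 in replicate 2, of which 4 and 3 had at least 10 IP reads. Introns held 2 of the peaks in replicate 1 and 4 in replicate 2, with from 6 to 9 IP reads each. The stronger of its shared sites covered 3299183 to 3299310 and fell on a coding exon of 147 bases (3299162 to 3299308). Its log2(fold change) was 3.32 in replicate 1 (59 IP and 10 SMInput reads, interval 2.34 to 4.46) and 3.46 in replicate 2 (52 and 17 reads, 2.65 to 4.34).

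That Crem exon was present in 8 of the 23 basic transcripts, among them Crem-201, Crem-204, Crem-228 and Crem-239, and absent from Crem-203 and Crem-233. Clusters cannot be assigned to a single transcript, and a cluster in an exon that only some transcripts hold reports on those that do. Transcript Crem-233, with 8 exons, held 12 clusters and 2 significant peaks in its exons in replicate 1 and 13 and 2 in replicate 2. Crem-228, with 10 exons, held 17 and 5 in replicate 1 and 18 and 4 in replicate 2. The second shared site, in the 3′UTR at 3267395 to 3267448, lay in an exon of 11 transcripts and rested on few reads, with 8 IP and 2 SMInput reads in replicate 1 (interval of the log2 ratio 0.44 to 6.04) and 9 and 5 reads in replicate 2 (0.96 to 4.62).

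Fhl5, the LIM-only protein also known as ACT that binds CREM in the testis without a need for phosphorylation, was 1 of the genes with no shared site, along with Rfx3 and Sox5. The gene (ENSMUSG00000028259.13) lies at 25199908 to 25242876 on the minus strand of chromosome 4, with 6 exons and a 3′UTR of 70 bases. None of its 21 clusters in replicate 1 was significant. In replicate 2, 2 of 13 were, side by side in the CDS of exon 5, at 25207076 to 25207096 with a log2(fold change) of 2.66 (7 and 4 reads, interval 0.68 to 4.88) and at 25207097 to 25207153 with 2.17 (10 and 8 reads, 0.68 to 3.71). The overlapping cluster of replicate 1 had 0.76. The highest fold change of Fhl5 in replicate 1 was 3.35, in an intron at 25212671 to 25212686 and again in the adjoining cluster at 25212687 to 25212737, each from 6 reads against 1 and with a −log10(P value) of 1.91.

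The RFX factors share a winged-helix DNA-binding domain that recognises the X-box, and RFX2 is required for spermatids to form flagella. Rfx2 (ENSMUSG00000024206.15, chromosome 17, 56775897 to 56831013, minus strand) had 3 significant peaks among 70 clusters in replicate 1 and 12 among 71 in replicate 2. All 3 of replicate 1 and 5 of replicate 2 were in the 3′UTR of exon 17, and the other 7 of replicate 2 were in introns. The intron peaks had from 4 to 6 IP reads each, and 0 of them met a significant peak of replicate 1. With at least 10 IP reads, 5 of the 12 peaks of replicate 2 were left. The 27 CDS clusters of Rfx2 in each replicate included no significant peak.

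The shared site of Rfx2, at 56776148 to 56776321, reached a log2(fold change) of 2.71 in replicate 1 (58 IP and 15 SMInput reads, interval 1.88 to 3.64) and 2.81 in replicate 2 (68 and 35 reads, 2.20 to 3.44). Elsewhere in exon 17, replicates straddled the threshold: a cluster at 56776879 to 56777041 had 2.03 in replicate 1, and the clusters of replicate 2 that overlapped it had 1.87 (56776887 to 56776990) and 0.77 (56777017 to 56777039, in the CDS). In the opposite direction, the cluster at 56775918 to 56775994 had 2.55 in replicate 2 and its counterpart 1.71. A short cluster at 56776741 to 56776759 had 3.61 in replicate 2 and 0.69 in its counterpart.

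Rfx1 (ENSMUSG00000031706.7, chromosome 8, 84066834 to 84096992, plus strand) is more widely expressed than its relative. Its shared site was near the start of the protein: 84073942 to 84074045 in exon 2 of 21, which holds the end of the 5′UTR and the first coding bases. The log2(fold change) there was 2.32 in replicate 1 (47 IP and 16 SMInput reads, interval 1.47 to 3.23), and in replicate 2 the neighbouring peaks had 2.24 and 2.71. The remaining peaks were an exon 6 peak of replicate 1 with 7 reads against 1, and a 3′UTR peak of replicate 2 at 84096397 to 84096483 with a value of 2.11. Exons 7 to 20 had no significant peak.

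Rfx3, a regulator of ciliary genes in many tissues, had more clusters than any other of the 10 genes and few significant ones, 1 of 142 in replicate 1, where Fhl5 alone had fewer, and 4 of 86 in replicate 2. The gene (ENSMUSG00000040929.17) extends from 27761721 to 28011166 on the minus strand of chromosome 19, and 125 and 76 of its clusters were intronic. Its peak in replicate 1, at 27766803 to 27766887 in the 3′UTR, had a log2(fold change) of 4.35 from 12 IP reads and 1 SMInput read (interval 1.59 to 9.76), and no cluster of replicate 2 overlapped it. The peaks of replicate 2 were all in introns, from 4 to 6 IP reads each, with 3.85 as the highest value, at 27773743 to 27773771 (4 reads against 1, 0.51 to 9.47). The 3′UTR of its reference transcript was the longest of the 10 with 6734 bases, and the 3′UTRs of Rfx3 had 9 clusters in replicate 1 and 4 in replicate 2.

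Sox30 stood apart from the rest. Its protein is an HMG-box factor without which spermatids arrest at the round stage. The gene (ENSMUSG00000040489.5) lies at 45980310 to 46017994 on the plus strand of chromosome 11 and has 1 transcript of 5 exons. Of its clusters, 16 of 29 (55.2%) were significant in replicate 1 and 20 of 29 (69.0%) in replicate 2, and 14 and 17 of these were shared. Only 48 annotated genes had more significant peaks in replicate 1, and 56 in replicate 2. Per kilobase of exon, Sox30 had 5.34 and 6.67 significant exonic peaks, and Mybl1 came next among the 10 genes with 2.01 in each replicate. These counts include adjoining peaks: in exon 4, 1 shared site (45991757 to 45992111) was made of 8 peaks in each replicate. The shared peaks of Sox30 formed 5 sites, as many as those of Mybl1.

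Exon 4 of Sox30, 493 bases from 45991619 to 45992111, held 9 significant peaks in each replicate. The log2(fold change) was higher towards the 3′ end of the exon. It was 2.55 in replicate 1 and 2.51 in replicate 2 at the 5′ end (45991619 to 45991662), and the interval was 1.85 to 3.31 in replicate 1 and 1.90 to 3.13 in replicate 2. At 45991899 to 45992008 it was 3.71 in replicate 1 (193 IP and 25 SMInput reads, 3.11 to 4.37) and 3.74 in replicate 2. The peak at 45992046 to 45992094 had 4.48 in replicate 1, the peak of replicate 2 with the largest overlap had 4.67, and both were listed at the cap of 400. The last peak of the exon, ending at 45992111, had 4.13 and 4.03. Between them the order of neighbouring peaks differed: those at 45992009 to 45992031 and 45992032 to 45992045 had 3.89 and 3.66 in replicate 1, while those at 45992009 to 45992032 and 45992033 to 45992046 had 3.83 and 4.03 in replicate 2. In replicate 2 the peaks at 45992033 to 45992046 and 45992096 to 45992111 both corresponded to 109 IP and 24 SMInput reads.

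The fold change was also high where exon 5 of Sox30 begins, so that the strongest stretches flanked the junction of exons 4 and 5 in the spliced mRNA. Whether reads that cross this junction counted in both stretches was not tested. The site at 46016974 to 46017134 had 4.45 at its highest in replicate 1 (90 IP and 7 SMInput reads, interval 3.34 to 5.80) and 4.42 in replicate 2 (113 and 19 reads, 3.71 to 5.20). Further along the exon it fell to 2.19 and 2.07 at 46017222 to 46017310, still in the CDS. The 3′UTR of 638 bases had 0 clusters in replicate 1 and 1 in replicate 2, a significant peak with 2.49 at 46017763 to 46017775. Exon 3 held a further shared site, at 45984738 to 45984898, with 2.97 and 2.91 at its highest (106 and 23 reads in replicate 1, 69 and 33 in replicate 2). In exon 1, which holds the first part of the CDS, 1 of 7 clusters and 1 of 5 were significant, with 2.29 in replicate 1 and 2.04 in replicate 2, at different positions.

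**Figure D3:**
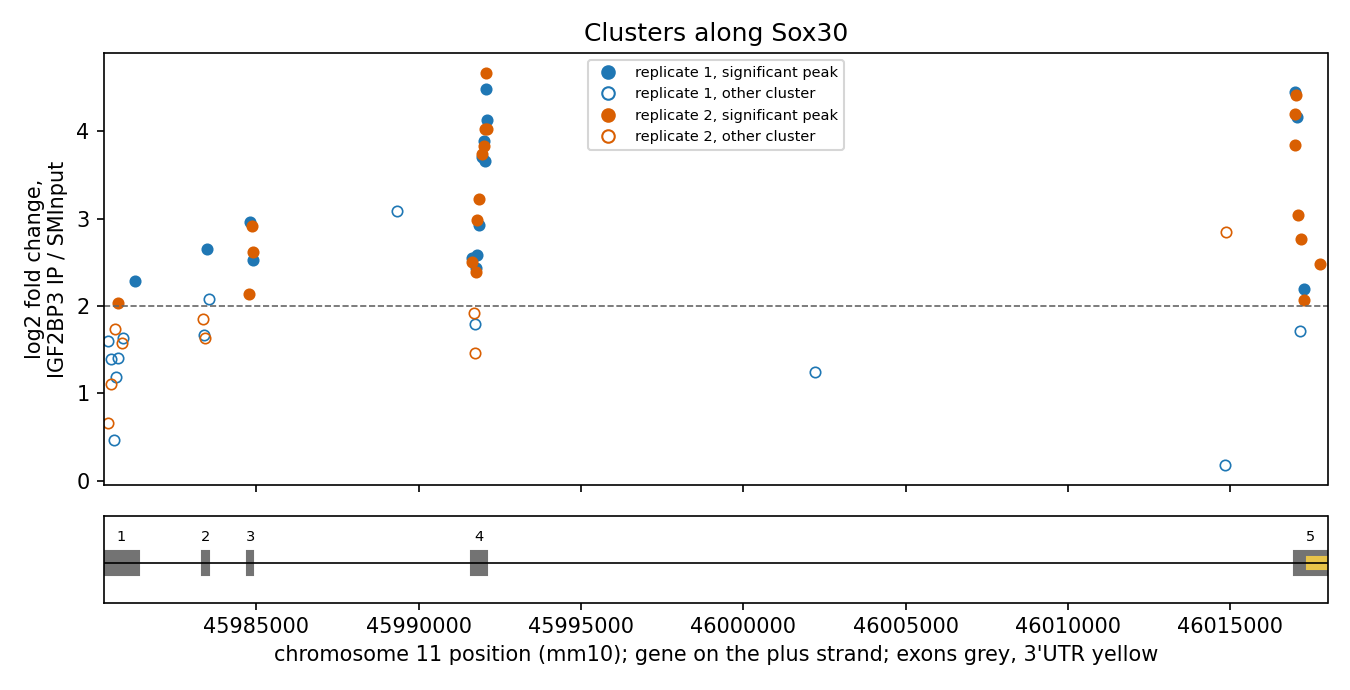
Clusters of Sox30 are drawn by the position of their centre on chromosome 11 (horizontal axis, mm10) and their log2(fold change) of IP over SMInput (vertical axis), filled for significant peaks and open for other clusters, in blue for replicate 1 and orange for replicate 2. The strip below shows the 5 exons in grey with the 3′UTR in yellow; the highest values, 4.48 and 4.67, are at the end of exon 4.

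Sox5, whose short form is the main product in the testis and whose protein lacks a transactivation domain of its own, had 4 significant peaks among 74 clusters in replicate 1 and 3 among 36 in replicate 2, and 0 were shared. The gene (ENSMUSG00000041540.16) is by far the longest of the 10, from 143828425 to 144781977 on the minus strand of chromosome 6. Its 3′ part is the span of the short transcript Sox5-204, 143832835 to 143947106, which held 45 of the 74 clusters in replicate 1 and 19 of 36 in replicate 2. In Sox5-201, the basic transcript with the most exons, exons 1 to 6 of 15 had 0 clusters in both replicates, and exon 7 had 2 in replicate 1, while the exons from 8 on had clusters in most cases. Exons 9, 12 and 13 each had 1 significant peak in replicate 1, and exon 15 had 1 in replicate 2. The exon 9 peak lay in an exon held by 1 of the 5 basic transcripts, Sox5-201, and so not by the short Sox5-204. The exons of the peaks in exons 12 and 13 were held by all 5.

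The highest value of a significant Sox5 peak was 2.76 in replicate 1, in an intron at 143855232 to 143855364 (8 IP and 2 SMInput reads, interval 0.44 to 6.04). In replicate 2 it was 3.85, in an intron at 144100678 to 144100697, with 4 reads against 1 (0.51 to 9.47). A peak of the same value at 144417560 to 144417572 lay outside every basic transcript. The exon 12 peak met a cluster of replicate 2 with 1.43, and the exon 9 peak met clusters with 0.11 and 0.53. At most 15 IP reads stood behind any significant Sox5 peak in either replicate.

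Tbpl1 encodes the TBP-like factor TRF2, which does not bind the TATA box and is essential for spermiogenesis. The gene (ENSMUSG00000071359.13) covers 22703879 to 22731938 on the minus strand of chromosome 10. It had 4 significant peaks among 43 clusters in replicate 1, all in the 3′UTR, and 3 among 29 in replicate 2, of which 2 were in the 3′UTR and 1 in the CDS of exon 5. The shared site was at 22705736 to 22705815, centred 41 bases after the stop codon and present in both basic transcripts. Its log2(fold change) was 2.96 in replicate 1 (46 IP and 10 SMInput reads, interval 1.96 to 4.12) and 3.01 in replicate 2 (38 and 17 reads, 2.15 to 3.93). The highest value of a significant Tbpl1 peak in replicate 1, 3.35 at 22705205 to 22705255, met no cluster in replicate 2.

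The shared sites thus took different places in the mRNAs. In Tbpl1 the site began close behind the stop codon, in Tcfl5 it was near the transcript end, in Mybl1 the sites were spread along the 3′UTR, and in Sox30 and Rfx1 they were in the CDS. For the highest-ranked shared site of each gene, 30 bases centred on the overlap of the strongest peaks of the replicates are given. The rank was by the lower of the replicates' highest fold changes. In Mybl1 the overlap, 9667578 to 9667594, is shorter than the 30 bases shown. Which of these bases IGF2BP3 touched was not tested. The site of Crem, of rank 3 among the 16, is not shown here, so the sequences cover 6 of the 7 genes with a shared site. They were read from the GRCm38 genome on the strand of the gene, and capitals mark a match to GAACA or to AAACC, and likewise to ACACA or to GGAC. Of the 6 sequences, 1 held such a match.
Sox30 exon 4, chr11:45992056-45992085, plus strand: cggttctcctttcatcacccttacttccta
Tbpl1 3′UTR, chr10:22705769-22705798, minus strand: agtctccacctgagcaccgtttgagacctg
Mybl1 3′UTR, chr1:9667572-9667601, minus strand: cagccattcatgcatggaaactgacttcac
Rfx2 3′UTR, chr17:56776230-56776259, minus strand: ctccaAAACCtgtgctcagggcagtgcctg
Tcfl5 3′UTR, chr2:180622042-180622071, minus strand: cttcttttaaagctccttttgcccataaac
Rfx1 exon 2, chr8:84073992-84074021, plus strand: ctgcccctgcaccctcacagcctgccacac

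In windows of 100 bases around the centre of significant peaks in the 3′UTRs of the 10 genes, ACACA occurred in 4 of 20 in replicate 1 (20%) and 5 of 22 in replicate 2 (22.7%), against 11.8% and 10.9% of all significant 3′UTR peaks. AAACC occurred in 4 of 20 and 2 of 22, against 8.76% and 8.42%. GAACA was in 0 of these 3′UTR windows in either replicate, against 8.29% and 7.69%. GGAC, the core of the m6A consensus, was in 1 and 4 of these windows, beside 25.1% and 23.4% of all. In the CDS, GGAC was in 6 of 25 windows and 7 of 26, beside 29.6% and 29.4%. GAACA was in 2 and 3 of these CDS windows (8% and 11.5%, beside 10.5% and 10.7%). AAACC was in 1 and 2 (4% and 7.69%, beside 9.70% and 8.50%), and ACACA in 2 and 4 (8% and 15.4%, beside 10.6% and 9.96%). These are small numbers of partly overlapping windows and no test was made of them.

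Of 24 genes for relatives and partners of the 10 proteins, 21 had clusters in both replicates. In all, 16 had a significant peak in replicate 1, 17 in replicate 2, and 15 in both, while 5 had overlapping peaks: Tbp, Gtf2a1, Taf4b, Fhl4 and Nr6a1. Over all annotated genes with clusters, the shares were 35.5% in replicate 1, 57% in replicate 2, 35.2% in both and 15.1% with overlapping peaks. Among genes with as many clusters as the 10 regulators, they were 67.7% in both and 27.3% with overlapping peaks. Some genes of the list had cluster numbers outside that range. In Tbp, the TATA-box factor to which TBPL1 is related, shared peaks reached a log2(fold change) of 4.76 in replicate 1 and 3.27 in replicate 2. In Gtf2a1, a TFIIA subunit that binds both TBP and TBPL1, the values were 3.04 and 3.99. Fhl4, a testis relative of Fhl5, had 8 and 12 significant peaks with 3.55 and 2.55 as the highest shared values. The RFX genes of the list, Rfx4, Rfx5 and Rfx7, had no overlapping peaks. Nor did Rfxap and Rfxank, or Sox6 and Sox13, the SoxD relatives of Sox5. Of these genes, Rfx4, Rfx5, Rfxap and Sox6 still had significant peaks in both replicates, at different positions.

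Among 18 germ cell genes known as targets of these factors, 12 had a significant peak in replicate 1 and 11 in replicate 2, 10 in both, and 5 had overlapping peaks: Smcp, Odf1, Akap4, Ldhc and Acrv1. These counts stand beside the same 35.5%, 57%, 35.2% and 15.1% of annotated genes. Among genes with as many clusters as the 10 regulators, 67.7% had a peak in both replicates and 27.3% had overlapping peaks. Some of these target genes had fewer clusters than that range. The highest shared values were those of Smcp, a capsule protein of sperm mitochondria, with 3.58 in replicate 1 and 3.60 in replicate 2. Prm1, Prm2, Tnp1 and Tnp2, the genes for protamines and transition proteins that CREM activates, had clusters in both replicates and 0 significant peaks. Where read numbers were found, SMInput reads reached 426 in replicate 1 and 665 in replicate 2.

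The tissue label was checked against marker genes. All 4 spermatocyte markers (Sycp3, Sycp1, Hspa2, Piwil1), all 5 spermatid markers (Acrv1, Tnp1, Prm1, Spaca1, Tssk6) and all 3 spermatogonial markers had clusters in both replicates. So did 4 of 5 Sertoli cell markers and all 4 Leydig cell markers, while 0 of 4 genes of other tissues did, though Hba-a1 had 1 cluster in replicate 1. The check is coarse: a cluster need not be higher in IP, and 14251 annotated genes had clusters in both replicates. Whole testes were used, so a significant peak in one of the 10 genes does not tell in which cell type the RNA was bound, and fewer cells of a type cannot be told apart from less RNA per cell.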

How the data were processed

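Testes of 8-week-old mice were analysed in 2 replicates, each with an IGF2BP3 IP and an SMInput library. The authors trimmed adapters with cutadapt, removed rRNA reads with Bowtie2, aligned reads to mm10 with STAR, collapsed PCR duplicates by molecular identifiers, called clusters with Clipper and compared each with the SMInput of its replicate. Per cluster, the −log10 of a P value was deposited by the authors. The deposited log2 values are the authors' fold changes of IP over SMInput, scaled to library size.

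Members and gene lists were chosen with earlier results of these data known. Clusters were given to a gene by their centre, and to 3′UTR, CDS, 5′UTR or intron by basic GENCODE M21 transcripts, 3′UTR first. Overlap meant 1 base on the same strand. Library totals and reads per cluster were solved as whole numbers returning both listed values, using Fisher's exact test if any observed or expected number was under 5, or else the chi-square test with continuity correction. A single solution was found for 99.97% of clusters listed between 0 and 400 in replicate 1 and 99.99% in replicate 2. An SMInput number of 1 may stand for 0. The solver was tested on simulated data. Sites significant in both replicates were to be described in full up to the 12 with the highest value, ranked by the lower of the replicates' highest fold changes; genes without such a site were described by their peak or cluster with the highest fold change per replicate. List genes were named where peaks overlapped, and some without overlap were named as well. Alternative thresholds, gene assignment, overlap, read minimum, region rules and single replicates were tried. Python 3.11.15, pandas 2.3.3, NumPy 2.4.6 and SciPy 1.17.1 were used.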

Additional observations from a re-analysis of the deposited data

How the results depend on the processing

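Thresholds moved the counts most. With both thresholds at 3, the 10 genes had 15 significant peaks in each replicate, 4 genes had a peak in both replicates, 2 genes had overlapping peaks, 3 sites were significant in both and 66.7% of the peaks of replicate 2 met one of replicate 1. With both at 1, there were 179 peaks in replicate 1 and 224 in replicate 2, 44 sites, 3′UTR shares of 21.8% and 17.0%, and overlapping shares of 36.9% and 31.2%. With a single replicate, the number of sites ranged from 36 to 48. In alternatives chosen after seeing the data, 23 and 36 peaks were left in replicates 1 and 2 without Sox30 and Mybl1, and 34.8% and 25% of them overlapped; without Sox30 alone, 42.4% and 34.8% did. With at least 10 IP reads, 68.1% did in replicate 2. All overlapping shares were also recomputed only after seeing the data. The cause was not tested, though a looser threshold or fewer genes changes a count by construction. Gene assignment by any base, leaving out clusters in a second gene, at least 10 IP reads, overlap of 50% and other region rules left every count over the 10 genes within 1.5 times and every 3′UTR share inside its interval. For the peak counts of single genes, 45 of 100 alternatives moved by more, 37 of them under the other thresholds and 8 with at least 10 IP reads, where Rfx2 had 5 peaks in place of 12 and Crem 3 in place of 8 in replicate 2. No paired analysis was possible because every listed value already compares an IP with the SMInput of its own replicate, and no fit across replicates was made to which a block could be added. Peaks of Fhl5, Rfx3 and Sox5 rested on at most 15 IP reads, and the part of depth in their number was not tested.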
